A study of Mus musculus with 2 samples.

Results

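The mouse carries a pair of genes for the microRNA miR-128, Mir128-1 and Mir128-2, and both were found among the 2202 microRNA genes counted in heart. They were chosen by name, as the entries that the GENCODE M21 annotation calls Mir128-1 (ENSMUSG00000065520.2) and Mir128-2 (ENSMUSG00000065441.2), 2 of 2202 genes. Small RNA came from hearts of male B6CASTF1/J mice, the hybrid offspring of C57BL/6J and the wild-derived CAST strain, at 10 days of age. There were 2 libraries, biological replicates 1 and 2 of 1 group, with no other tissue, age or treatment. The labels give both a common donor identifier but separate sample identifiers, so the spread between them may be partly technical.

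A microRNA gene is transcribed as a hairpin that is cut into a duplex, and each strand of the duplex, the 5p or the 3p arm, can enter the silencing complex and pair with messenger RNAs through its seed, bases 2 to 8. The miR-128-3p arm is the form usually studied and is abundant in brain neurons. In mouse heart, loss of miR-128 has been reported to increase cardiomyocyte division after birth through the chromatin factor Suz12, and miR-128 is therefore called a brake on that division. The libraries measure microRNA levels only and hold no measure of cell division.

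The mature sequences, taken from the RefSeq table of build GRCm38.p6, are shown because they decide which reads can tell the genes apart. Capitals mark the seed.
miR-128-3p, both genes: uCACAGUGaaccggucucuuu
miR-128-1-5p, Mir128-1: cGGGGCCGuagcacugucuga
miR-128-2-5p, Mir128-2: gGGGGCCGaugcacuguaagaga

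The 3p arms were identical over all 21 bases. The 5p arms shared their seed and 16 of 21 positions (76.2%) when read from their 5′ ends. Counted from 1 at the 5′ end, with the base of miR-128-1-5p first, the differences were C1G, U9A, A10U, C18A and U19A. Among 1738 mature arms in the table, the seed CACAGUG was found at bases 2 to 8 in the 3p arms of this pair alone, and the seed GGGGCCG in its 5p arms alone. The pair thus formed a seed family of its own on either arm.

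The whole hairpins are shown with both mature arms in capitals.
Mir128-1 hairpin: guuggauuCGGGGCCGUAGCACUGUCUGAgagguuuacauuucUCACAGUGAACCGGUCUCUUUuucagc
Mir128-2 hairpin: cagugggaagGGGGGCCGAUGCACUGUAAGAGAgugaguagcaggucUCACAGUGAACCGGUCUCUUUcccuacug

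The longest stretch common to the 70-base and the 76-base hairpin was 23 bases, the 3p arm and 2 bases before it. The first base past the 3p arm differed, U22C counted from the first base of miR-128-3p, with the base of Mir128-1 first. A read that lies within the common stretch therefore fits both genes equally. Reads of the 5p arm, and 3p reads that run past base 21, cover a base at which the hairpins differ. The counts do not show whether base 22 of a 3p read was copied from the hairpin. RNAfold predicted a fold of -29.3 kcal/mol with 26 base pairs for Mir128-1 and of -37.3 kcal/mol with 28 base pairs for Mir128-2, whose hairpin is also richer in G and C (50% for Mir128-1 and 56.6% for Mir128-2).

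**Figure D1:**
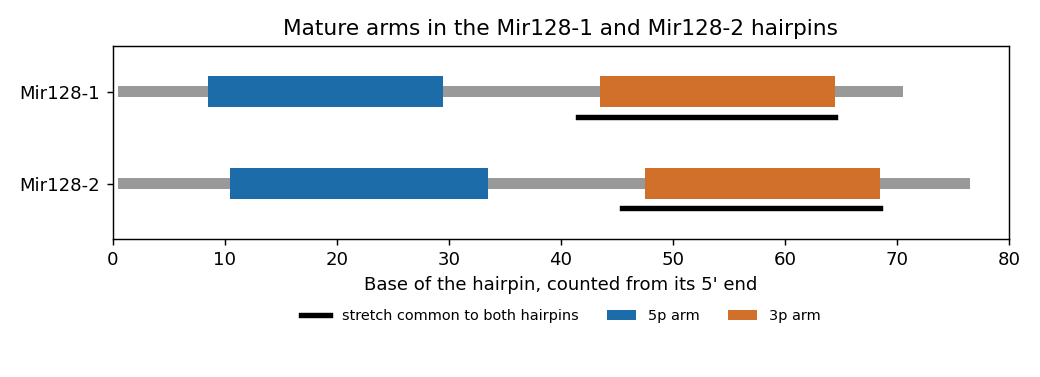
Map of the Mir128-1 and Mir128-2 hairpins, with bases counted from the 5′ end on the x axis, the 5p and 3p arms as blocks and the stretch common to both hairpins as a black line. The common stretch covers the whole 3p arm and 2 bases before it, bases 42 to 64 of Mir128-1 and 46 to 68 of Mir128-2, and leaves out the 5p arm.

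Both genes lie in introns and on the strand of their host. Mir128-1 is at chr1:128202361-128202430, plus strand, mm10, in intron 19 of 26 of the R3hdm1 transcript R3hdm1-201, 5263 bases after the upstream exon. Mir128-2 is at chr9:112118636-112118711, minus strand, in intron 19 of 20 of the Arpp21 transcript Arpp21-223. It lies 471 bases after the upstream exon of an intron of 51873 bases. Arpp21 encodes a phosphoprotein known from neurons. Both R3hdm1 transcripts that span Mir128-1, and all 9 Arpp21 transcripts that span Mir128-2, have it in an intron. The closest other counted microRNA gene was 3296 kb from Mir128-1 and 370.9 kb from Mir128-2, and neither of those neighbours had a count, so each member stands alone and not in a cluster.

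The counts on microRNA genes came to 3748432 in replicate 1 and 6305782 in replicate 2, and levels are given as CPM, counts scaled to 1000000 of these. Multimapping reads, which fit more than 1 place in the genome, stand as a separate entry of the tables, with 36.8% of the reads of replicate 1 and 48.1% of those of replicate 2. All 3 columns sum to the same total, 8835703 reads in replicate 1 and 17033667 in replicate 2, as they would if each read stood in 1 entry alone and multimapping reads in no gene count. Since the 3p arm is the same in both genes, reads confined to it fit both places, and the counts below are not taken as the level of miR-128-3p. The tissue label was checked against heart muscle microRNAs, of which Mir499 stood at 3678 CPM in replicate 1 against 7542 CPM in replicate 2. Mir208a had 3795 and 1362 CPM, Mir208b 794.5 and 3444 CPM, and Mir1a-2 43.2 and 99.6 CPM. Of the 7 genes on that list 6 were detected, but Mir1a-1 (3.47 and 3.01 CPM) and Mir133a-1 (2.67 and 4.28 CPM) were low and Mir133a-2 was not detected. Copies of miR-1 and of miR-133a share mature arms, so their gene counts are not taken as levels of the mature forms either. A gene is called detected here where each library gave it 10 counts or more, which 340 genes did. Counts of 3, the limit that a count of 0 allows, equal 0.8003 CPM in replicate 1 and 0.476 CPM in replicate 2.

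Mir128-1 was present at a moderate level and Mir128-2 at a low one. Mir128-1 had 390 counts in replicate 1 and 1774 in replicate 2, which is 104 and 281 CPM, with a mean of 193 ± 125 CPM (SD, n = 2). Mir128-2 had 45 counts in replicate 1 and 148 in replicate 2, which is 12.0 and 23.5 CPM, with a mean of 17.7 ± 8.11 CPM (SD, n = 2). Both genes were detected, both were higher in replicate 2, and the range of one did not overlap that of the other. By rank among the 2202 genes, Mir128-1 was at 158 in replicate 1 and 110 in replicate 2, and Mir128-2 at 258 and 222. By mean level, Mir128-1 lay above 61.2% of the detected genes, whose median was 80.03 CPM, and Mir128-2 above 28.5%. Neither gene had a count on the opposite strand in either library. In bulk tissue, fewer cells of a type and less RNA per cell cannot be told apart.

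**Figure D2:**
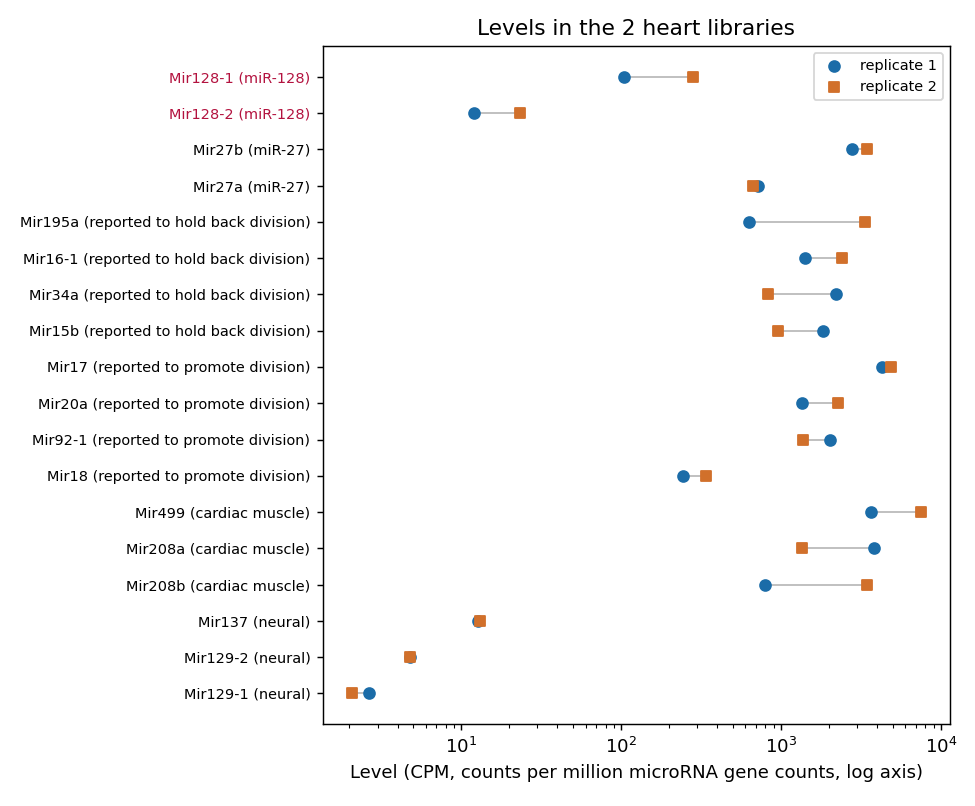
Levels in CPM (x axis, log scale) of the miR-128 genes, the miR-27 genes and the most abundant detected members of 4 lists, with circles for replicate 1 and squares for replicate 2. Mir128-1 (104 and 281 CPM) lies above Mir128-2 (12.0 and 23.5 CPM) in each library, and both lie below the miR-27 genes and the leading cardiac muscle genes.

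Most of the assigned counts of the pair belonged to Mir128-1. It held 89.7% of them in replicate 1 (390 of 435; exact Clopper-Pearson 95% interval 86.4% to 92.3%, or 8.67-fold over Mir128-2). In replicate 2 it held 92.3% (1774 of 1922; interval 91.02% to 93.5%, or 11.99-fold). The mean share was 90.98% ± 1.87 (SD, n = 2). The share in replicate 1 was lower by 2.65 percentage points, with a Newcombe 95% interval of the difference from -6.05 to 0.184 points, and did not pass Fisher's exact test (two-sided p = 0.0808). That test and these intervals set 2 libraries against counting error alone. Reads copied by PCR from 1 molecule are not independent, so counting error itself may be understated. The split refers to reads that could be placed in 1 gene, and which arm they came from is not in the tables. A 3p read with U at base 22 matches Mir128-1 and not Mir128-2, whether or not that base came from the hairpin. The part of such reads in the share was not tested.

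The share was set beside that of other gene pairs built in the same way, with 1 identical and 1 different mature arm. Among the 972 counted genes matched to a RefSeq hairpin there were 24 such pairs, and 17 had at least 100 counts over both libraries. No RefSeq mature arm was matched to 1244 counted genes, 50 of them detected. These genes held 26.3% of the counts of replicate 1 and 25.4% of those of replicate 2. Pairs that involve them are not among the 24, so the ranks hold within the pairs found alone. The miR-128 pair ranked at 9 of 24 by summed count. In 7 of the 17 pairs, miR-128 among them, 1 gene held at least 80% of the counts in both libraries. Mirlet7f-2 led its pair, with a share of Mirlet7f-1 of 3.22% in replicate 1 and 3.02% in replicate 2. Mir92-1 of the miR-17-92 cluster led its pair with 97.3% in replicate 1 and 98.0% in replicate 2, and Mir16-1 held 87.4% and 84.3%. In other pairs the split itself moved, as for Mir24-1 with 62.6% in replicate 1 and 18.5% in replicate 2, the largest difference of the 17 at 44.1 percentage points. Ordered from the smallest difference, the miR-128 pair ranked at 5 of 17. The pairs Mirlet7a-1 with Mirlet7c-2 and Mirlet7c-1 with Mirlet7c-2 share a gene, so the 17 pairs are not all separate.

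**Figure D3:**
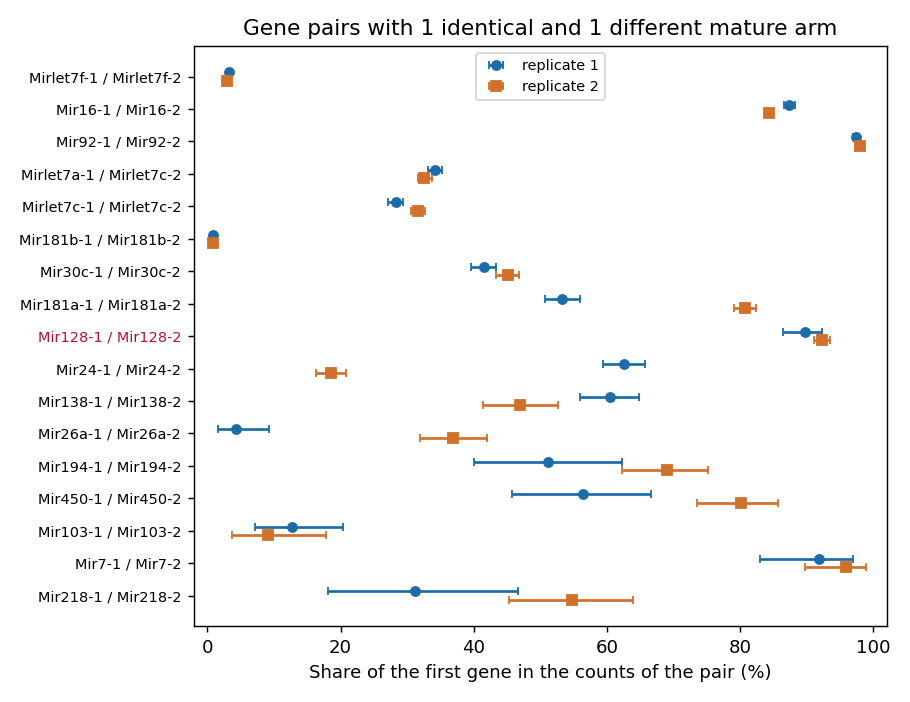
Share of the first-named gene in the counts of its pair (x axis, %), with circles for replicate 1 and squares for replicate 2. Exact 95% intervals are shown as bars. The pairs are the 17 found among matched genes with 1 identical mature arm and at least 100 counts. The intervals of the miR-128 pair, around 89.7% in replicate 1 and 92.3% in replicate 2, overlap, whereas Mir24-1 moved between 62.6% and 18.5%.

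Both miR-128 genes were lower in replicate 1 than in replicate 2 by more than the counting error of independent reads. After TMM scaling, Mir128-1 had a log2 ratio of replicate 1 over replicate 2 of -1.58 (exact 95% interval -1.74 to -1.42, 2.98-fold lower in replicate 1; exact binomial test, Benjamini-Hochberg adjusted p = 2.57e-103). Mir128-2 had a log2 ratio of -1.10 (interval -1.63 to -0.62, 2.15-fold lower; exact binomial adjusted p = 3.96e-06). Of all 340 detected genes, 72.1% passed this test, 34.1% as lower and 37.9% as higher in replicate 1, and 10.3% were lower by at least 2-fold. A call alone therefore sets no gene apart between these libraries. By size, 13 of 340 genes (3.82%) had a log2 ratio as low as that of Mir128-1 or lower, and 32 (9.41%) had one as low as that of Mir128-2. The SD of the log2 ratio over the detected genes was 0.915 and its median 0.045.

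The log2 ratios of the members were not shown to differ from each other. The difference between them was taken as a conditional odds ratio from the same counts as the test of the share, so it is not a separate result. It was -0.468 on the log2 scale, with an exact 95% interval from -0.986 to 0.073. With 45 counts of Mir128-2 in replicate 1, a difference of up to about 1 on that scale was not resolved. Taken as a sum, the pair had a log2 ratio of -1.54 (interval -1.69 to -1.39). Among the 17 pairs of the same build found among matched genes, this was the lowest summed log2 ratio. The range ran up to 1.23, with a median of 0 and 9 pairs below 0. Within these pairs Mir16-1 with Mir16-2 came next at -0.95, and Mir138-1 with Mir138-2 was at the other end. Mir1a-1 and Mir1a-2 also share a mature arm but were not among these pairs, and Mir1a-2 alone had a log2 ratio of -1.35.

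**Figure D4:**
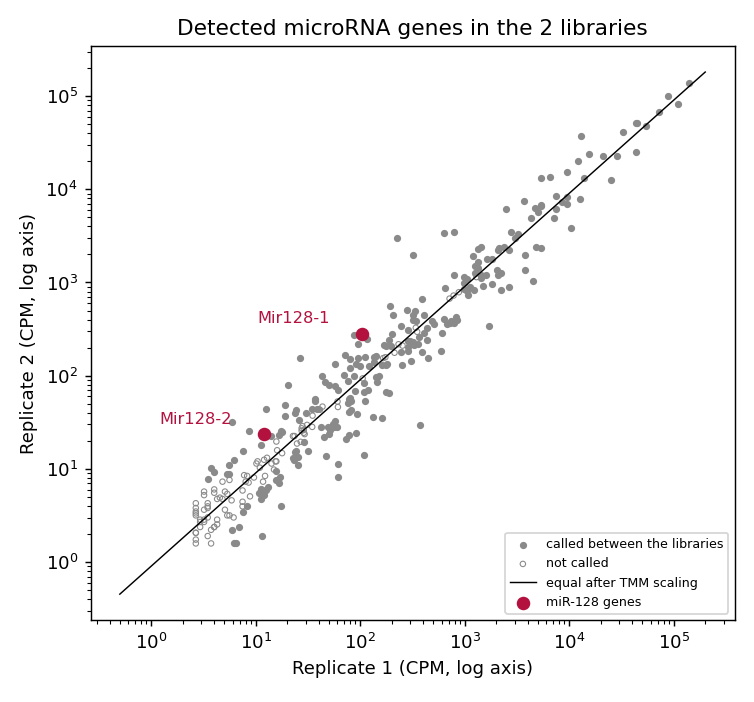
Level of each of the 340 detected genes in replicate 1 (x axis, CPM, log scale) and replicate 2 (y axis, CPM, log scale), filled where the binomial test called a difference and open where it did not, with a line where the libraries are equal after TMM scaling. Both miR-128 genes lie above the line, toward replicate 2, Mir128-1 near the edge of the cloud and Mir128-2 within it.

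The miR-27 microRNAs carry a seed that overlaps that of miR-128-3p. Mir27a and Mir27b belong to a pair of paralogous clusters with miR-23 and miR-24. Their 3p arms are shown with the seed in capitals.
miR-27a-3p: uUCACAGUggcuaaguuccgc
miR-27b-3p: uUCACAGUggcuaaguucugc

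The 8 bases UCACAGUG open miR-128-3p at base 1 and stand at base 2 in both miR-27 3p arms, so the seeds overlap with an offset of 1 base. These 8 bases occurred anywhere in 7 of the 1738 mature arms. Mir27b stood at 2795 CPM in replicate 1 against 3478 CPM in replicate 2, and Mir27a had 715 and 672 CPM. The summed miR-27 genes held 30.2 times the counts of the miR-128 genes in replicate 1 and 13.6 times in replicate 2. The miR-27 3p arms differ from each other, whereas the miR-128 3p arm is shared, so these ratios are not ratios of the mature 3p forms. Mir27b was lower in replicate 1 (log2 ratio -0.46), and Mir27a, at -0.05, did not pass the test.

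Other microRNAs reported to hold back cardiomyocyte division mostly had higher gene counts than the miR-128 genes. The list held the miR-15 family, the muscle microRNAs miR-1 and miR-133a, and Mir34a, which is tied to p53 and cell ageing. Of its 11 genes, 7 lay above Mir128-1 and 8 above Mir128-2 in both libraries. Reads confined to the shared miR-128 3p arm fit both miR-128 genes, so these positions are not ones of the mature forms. Mir16-1 stood at 1423 CPM in replicate 1 against 2410 CPM in replicate 2. Mir195a of the miR-15 family, reported to rise in mouse ventricles after birth, had 634 and 3377 CPM. Of the 10 detected genes, 5 were lower in replicate 1, against 34.1% of all detected genes, 2 were higher and 3 did not pass the test. The median log2 ratio was -0.50. Mir195a was the lowest at -2.56 and Mir34a the highest at 1.26, so the list had no common direction. Genes of the miR-1 and miR-133a groups also share mature arms between copies, and Mir133a-2 had 2 and 4 counts. Mir16-1 and Mir16-2 share the miR-16-5p arm, so their gene counts are not levels of that arm.

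MicroRNAs reported to promote cardiomyocyte division were the other list, with the miR-17-92 cluster, miR-199a, the cluster of miR-302 and Mir367, Mir204, Mir222 and Mir31. Of its 16 genes, 4 lay above Mir128-1 and 8 above Mir128-2 in both libraries, and Mir367 had no count in either. These too are positions by gene count, and Mir92-1 and Mir19b-1 each share a mature arm with another gene. Mir199a-1 and Mir199a-2 are gene copies of miR-199a, so their counts are not taken as levels of the mature forms either. Mir17 led with 4274 CPM in replicate 1 and 4861 CPM in replicate 2, followed by Mir20a with 1349 and 2261 CPM. Of the 9 detected genes, 6 were lower in replicate 1, 2 were higher and 1 did not pass the test, against 34.1% lower and 37.9% higher over all detected genes. The median log2 ratio was -0.33. Mir31, reported in rat to promote postnatal division, ran furthest the other way at 3.53. Calls in either direction thus occurred among genes of either reported role.

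**Figure D5:**
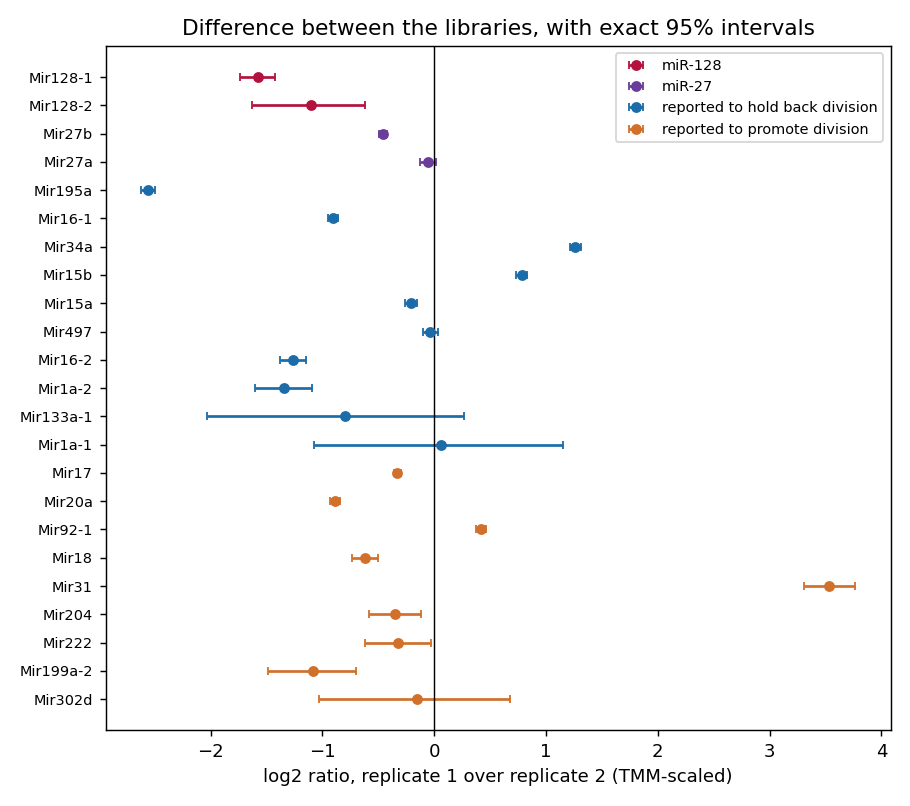
log2 ratio of replicate 1 over replicate 2 (x axis, after TMM scaling) for the miR-128 and miR-27 genes and the detected genes of both lists on cardiomyocyte division, with exact 95% intervals of counting error as bars. Mir128-1 at -1.58 and Mir128-2 at -1.10 lie left of 0, as do most but not all genes of either list.

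Since miR-128 is best known from neurons, microRNAs of neural tissue were measured beside it. The 10 genes of the neural list together had 79 counts in replicate 1 and 139 in replicate 2 (21.1 and 22.0 CPM), and the 3 genes of miR-124, its defining member, were at 0 in both. The copies of miR-124 and those of miR-9 have identical mature arms, so their reads may be among the multimapping ones, and these zeros do not show absence. Mir137 stood at 12.8 CPM in replicate 1 against 13.2 CPM in replicate 2, and Mir129-2 had 4.80 and 4.76 CPM. Of the 3 detected neural genes, 0 passed the exact binomial test between the libraries under TMM, DESeq2 or total-count scaling, and 0 had an unadjusted p under 0.05, against 72.1% called over all detected genes. Their log2 ratios ran between -0.18 and 0.22. At these counts the exact 95% intervals were wide, from -0.73 to 0.35 for Mir137, from -1.06 to 0.76 for Mir129-2, and from -1.12 to 1.53 for Mir129-1. The log2 ratio of Mir128-2 lay inside the interval of Mir129-1. No neural gene had a mean above that of Mir128-2, but in replicate 1 Mir137 (12.8 CPM) stood above Mir128-2 (12.0 CPM).

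Other cell type lists moved with the libraries to different extents. The cardiac muscle genes summed to 0.832% of replicate 1 and 1.25% of replicate 2, and 6 of them were detected. Of these, 3 were lower in replicate 1, 1 was higher and 2 did not pass the test. Over all detected genes, 34.1% were lower and 37.9% higher in replicate 1. The median log2 ratio of the 6 cardiac muscle genes was -0.99. The lower ones were Mir208b (log2 ratio -2.26), Mir1a-2 (-1.35) and Mir499 (-1.18), the direction of the miR-128 genes, and the higher one was Mir208a (1.34). Mir126a of endothelium stood at 88956 CPM in replicate 1 against 100563 CPM in replicate 2. Mir451a of red cell precursors had 9591 and 8251 CPM, and its partner Mir144 had 316 and 453 CPM. The part of these cell types, and of the larger share of multimapping reads in replicate 2, in the difference of the miR-128 genes was not tested.

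The detected genes most like each member in level were named by the distance of log2(CPM + 1) over the 2 libraries. For Mir128-1 these were Mir142 (117 CPM in replicate 1 and 249 CPM in replicate 2, distance 0.239), Mir101b (87.5 and 275 CPM, distance 0.249) and Mir215 (94.7 and 218 CPM, distance 0.392), followed by Mir1306 and Mir369. For Mir128-2 these were Mir194-1 (11.5 and 22.99 CPM, distance 0.0667), Mir450-1 (14.1 and 22.4 CPM, distance 0.229), Mir323, Mir20b and Mir5113. With 2 libraries, this likeness is one of level and of a single ratio.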

How the data were processed

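For 2 heart libraries the authors deposited raw counts of reads on 2202 microRNA genes, aligned to mm10 with GENCODE M21 per the deposited text. The aligner was not given in the sources used here, nor was the counter. The 3 count columns have no header, so their meaning was read from the values, and that of the gene strand served here. Another 4 entries, which name no gene, stayed out of library sizes: multimapping reads (36.8% of replicate 1, 48.1% of replicate 2), unmapped reads (16% of replicate 1, 11.5% of replicate 2), reads outside genes (4.78% of replicate 1, 3.43% of replicate 2) and ambiguous reads.

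Counts were scaled to CPM. Detected genes were compared with an exact two-sided binomial test against TMM-scaled library sizes (edgeR 4.0.16, over all genes with a count), adjusted by Benjamini-Hochberg over 340 genes at 0.05, with a prior of 0.5 counts in log2 ratios. TMM shifted log2 ratios by -0.14 relative to total counts. No quasi-likelihood test was run, since 2 single libraries leave no residual degrees of freedom. The procedure was tested on simulated Poisson counts, with no spread between replicates beyond counting error. That test therefore does not cover such spread in the real libraries. Alternatives were DESeq2 1.42.0 size factors, total counts, other minimums, another prior and both strands. RefSeq sequences (GRCm38.p6) were matched by position to 972 genes, both members included. RNAfold 2.7.2, Python 3.11.15 and scipy 1.17.1 were used.

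Named genes were both members, the 5 detected genes nearest to each, the miR-27 genes, the 2 most abundant of each list and up to 6 pairs of the same build. The other genes with values were added after their values were seen. Members and lists were chosen with earlier results of these data known.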

Additional observations from a re-analysis of the deposited data

How the results depend on the processing

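Both miR-128 genes kept their direction and their call under every alternative run on the ratio. The minimum of 50 counts was applied to the count of called genes alone, and Mir128-2 had 45 counts in replicate 1. Mir128-1 had log2 ratios of replicate 1 over replicate 2 from -1.65 (DESeq2 size factors) to -1.43 (total counts), and Mir128-2 from -1.18 to -0.96 under the same alternatives, below 2-fold with total counts. The count of called genes ran from 214 (at least 50 counts) to 252 (no filter beyond 1 count), against 245. The split of calls moved with the scaling, from 113 higher and 124 lower in replicate 1 with DESeq2 size factors to 146 higher and 97 lower with total counts. With all reads in the table as the denominator, Mir128-2 averaged 6.89 and Mir128-1 74.1 reads per 1000000. In the miR-27 list 2 genes were called lower in replicate 1, in place of 1, with DESeq2 size factors and with TMM over detected genes alone, an alternative added after seeing the data. In the list of microRNAs reported to promote division, 4 genes were called lower with total counts, against 6. Without replicate 1 or 2 the mean of Mir128-1 ran from 104 to 281 CPM, that of Mir128-2 from 12.0 to 23.5 CPM and the share of Mir128-1 from 89.7% to 92.3%. No ratio between the libraries can be had without either. Depth limits the interval of Mir128-2, with 45 counts in replicate 1.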
